A study of Mus musculus with 2 samples.

Results

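The 8 genes described here are the core of the non-canonical NF-kB pathway as it is known in medullary thymic epithelial cells (mTECs): the receptor genes Tnfrsf11a, Cd40 and Ltbr, the adaptor genes Traf6 and Traf3, the kinase gene Map3k14, and the subunit genes Relb and Nfkb2. They were listed by name for their role in mTEC maturation, and all 8 were found among the 32285 genes of the deposited gene list. The data were droplet single-cell transcriptomes of live EPCAM+ cells sorted from mouse thymus, from a series on the forkhead transcription factor Foxp1. There was 1 library labelled KO, from Cre+ mice, and 1 library labelled WT, from Cre- mice, written KO and WT in brackets where values are given. The genotype field of both samples reads KO, so the groups were taken from the titles and library names. The sources used here do not state how many animals went into a library, how old they were, which promoter drives Cre or which exons of Foxp1 it removes.

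In this pathway, a ligand binding to RANK (the product of Tnfrsf11a), CD40 or the lymphotoxin beta receptor (Ltbr) draws TRAF adaptors to the receptor and leads to the loss of TRAF3, which otherwise keeps the kinase NIK (Map3k14) at a low level. NIK then activates IKK alpha, the p100 precursor encoded by Nfkb2 is processed to p52, and p52 enters the nucleus with RelB. TRAF6 carries RANK and CD40 signals mainly to the canonical arm. In the thymus these receptors, bound by ligands from T cells and innate lymphoid cells, are known to be needed for mTECs to form a medulla and to reach the stage that expresses Aire, the regulator of peripheral-tissue antigens.

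Some pathway genes, Nfkb2 among them, are themselves known targets of NF-kB in other cells, and the letters of its binding motif stand next to the start of 2 of the members. In RefSeq promoters on build GRCm38.p6 (the 250 bases before each start), 6 of the 8 members had an entry, with 8 starts between them; Cd40 and Relb had none. All 6 held, on either strand, at least 1 match to a wide form of the motif, GGG, then any 5 bases, then CC, which 45.8% of 32851 promoters of the same length also held. A narrower form, contained in the wide one, was GGG, any 2 bases, TT, any 1 base and CC. It was held by 4.11% of all promoters and, among the members, by Traf3 and by the first and last of the 3 Nfkb2 windows. That share is per start, so a gene with several starts had more chances to match. The stretches below show those 2 genes and, for contrast, Tnfrsf11a, which held the wide form alone. Capitals mark matches to the wide form on either strand, and each line runs 5′ to 3′ on the gene's own strand, which is the plus strand for all 3.
Nfkb2, chr19:46304689-46304718: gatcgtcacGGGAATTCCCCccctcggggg
Nfkb2, chr19:46304709-46304736: ccctcggggggccgaaaGGGGCTTTCCC
Traf3, chr12:111166120-111166369: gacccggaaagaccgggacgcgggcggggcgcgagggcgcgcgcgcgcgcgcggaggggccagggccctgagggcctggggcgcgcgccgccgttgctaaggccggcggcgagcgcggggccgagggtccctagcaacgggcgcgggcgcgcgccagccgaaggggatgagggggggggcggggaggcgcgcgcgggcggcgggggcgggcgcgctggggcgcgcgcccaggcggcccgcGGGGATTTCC
Tnfrsf11a, chr1:105780473-105780722: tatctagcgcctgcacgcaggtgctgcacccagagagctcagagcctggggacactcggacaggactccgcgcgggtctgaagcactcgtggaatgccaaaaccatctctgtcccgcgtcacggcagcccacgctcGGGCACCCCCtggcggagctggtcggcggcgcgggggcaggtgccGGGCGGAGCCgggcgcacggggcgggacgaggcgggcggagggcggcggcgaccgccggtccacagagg
In Traf3 the match began 10 bases before the start. In the first of the 3 Nfkb2 windows, 3 matches to the narrower form, of which the last 2 overlap, began 39, 11 and 10 bases before it. In the last of these windows, not shown, 1 match began 225 bases before its start. A match of letters is a description of the sequence and does not show that a factor binds there.

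The library labelled KO held 4277 barcodes and 25233944 UMIs, and the library labelled WT 4957 barcodes and 33120715 UMIs. After filtering, 3269 epithelial cells (median 5225 UMIs) were kept in the library labelled KO and 3885 (median 6359 UMIs) in the library labelled WT. Foxp1 itself was higher in the library labelled KO (405 CPM against 252 CPM in the library labelled WT, over epithelial cells), so its whole-gene count goes against the label and every direction given here rests on the labels. Some cells went against the medullary label. The cTEC-like cluster held 9 cells (KO) and 0 cells (WT), and at Leiden resolution 2 a cTEC-like cluster of 57 cells (KO) and 27 cells (WT) was separated, of which 48 (KO) and 27 (WT) belonged to the class called Ccl21a-high here. The 9 cTEC markers summed to 3713 CPM (KO) and 2226 CPM (WT) in that class, the highest sum of the 13 classes in either library. With 1 library a group there is no replicate check and no test was made. Values are UMIs summed over the cells of a class, scaled to 1000000 UMIs of that class (CPM). Ratios are log2 of KO over WT with 95% intervals that cover counting error only. A gene's level is compared between cells, never with the level of another gene, since the counts are not scaled to transcript length.

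Levels were followed over 13 epithelial classes with at least 20 cells in each library. They were clustered without the 8 members, so that the members did not define them. Aire-stage, cycling, tuft-like, keratinocyte-like, neuroendocrine-like and ciliated-like cells were named from their markers, and the last 4 of these are mimetic cells, mTECs with the expression programme of cells found outside the thymus. The other classes are called by a leading gene. The Nos2 cluster expressed Aire (373 CPM in the library labelled KO and 484 CPM in the library labelled WT) and Cd80. The Ccl21a-high, Dpp6 and Ifi202b clusters expressed Ccl21a, the chemokine of the less mature medullary cells. The Ccl6 cluster mixed markers of microfold cells and enterocytes, and a pair of clusters with few UMIs a cell are called low-RNA.

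All 3 receptors were measured in medullary cells, and each had its own distribution over the classes. Tnfrsf11a (ENSMUSG00000026321, chr1:105780718-105847981, plus strand, mm10), which encodes RANK, was spread widely. It was highest in the Ccl6 cluster, at 363 CPM in the library labelled KO and 361 CPM in the library labelled WT. The Dpp6 cluster followed with 303 CPM (KO) and 355 CPM (WT), and the Nos2 cluster with 313 CPM (KO) and 293 CPM (WT). Intervals of these neighbours overlapped in both libraries, except that the Nos2 cluster stood apart from the next class in the library labelled KO and the Dpp6 cluster from the next class in the library labelled WT. The low-RNA Ccl21a cluster had 232 CPM (KO) and 284 CPM (WT). Aire-stage cells, at 224 CPM (KO) and 238 CPM (WT), were close to cycling cells, at 204 CPM (KO) and 241 CPM (WT). The Ifi202b cluster had 191 CPM (KO) and 239 CPM (WT), and its interval was apart from that of the next class in the library labelled WT. Tnfrsf11a was thus no lower in the Ccl6, Dpp6 and low-RNA Ccl21a clusters, which had little Aire, than in Aire-stage and cycling cells. Of these clusters the Ccl6 cluster alone was above the Nos2 cluster, which also expressed Aire, in both libraries. Below these lay keratinocyte-like cells with 154 CPM (KO) and 122 CPM (WT), neuroendocrine-like cells with 134 CPM (KO) and 125 CPM (WT), and the Ccl21a-high cluster with 109.6 CPM (KO) and 146 CPM (WT). The low-RNA Fabp9 cluster had 104 CPM (KO) and 121 CPM (WT), tuft-like cells 98.3 CPM (KO) and 114 CPM (WT), and ciliated-like cells 101 CPM (KO) and 85.5 CPM (WT). From the highest class to the lowest the mean of the libraries differed by 3.87-fold, and the rank order of the 13 classes correlated at 0.95 between the libraries.

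Cd40 (ENSMUSG00000017652, chr2:165055627-165072948, plus strand) was the member with the widest range, 11.3-fold between classes. This receptor takes signals from CD40 ligand on activated T cells. Aire-stage cells had 203 CPM in the library labelled KO and 195 CPM in the library labelled WT, and their intervals lay apart from the next class in both libraries. Cycling cells, with 133 CPM (KO) and 134 CPM (WT), and the Nos2 cluster, with 149 CPM (KO) and 115 CPM (WT), came next. The 4 classes at the top, with the low-RNA Fabp9 cluster at 66.8 CPM (KO) and 91.0 CPM (WT), were those with the most Aire. The Ccl6 cluster had 61.1 CPM (KO) and 42.6 CPM (WT), and ciliated-like cells 61.8 CPM (KO) and 32.1 CPM (WT). The Ccl21a-expressing clusters were low: the low-RNA Ccl21a cluster had 34.5 CPM (KO) and 33.2 CPM (WT), the Ifi202b cluster 32.1 CPM (KO) and 30.01 CPM (WT), the Ccl21a-high cluster 30.5 CPM (KO) and 27.1 CPM (WT), and the Dpp6 cluster 27.3 CPM (KO) and 24.8 CPM (WT). Neuroendocrine-like cells had 23.0 CPM (KO) and 20.8 CPM (WT), keratinocyte-like cells 18.8 CPM (KO) and 19.2 CPM (WT), and tuft-like cells 14.4 CPM (KO) and 20.9 CPM (WT). Neighbours in this lower part of the order overlapped in their intervals.

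Ltbr (ENSMUSG00000030339, chr6:125306571-125313885, minus strand), whose product binds lymphotoxin, ran the other way from Cd40. By the mean of the libraries its lowest class was the Aire-stage cells, with 9.62 CPM in the library labelled KO and 8.73 CPM in the library labelled WT. Cycling cells, with 9.48 CPM (KO) and 9.72 CPM (WT), were as low, and the Nos2 cluster had 14.97 CPM (KO) and 16.7 CPM (WT). Keratinocyte-like cells had 37.0 CPM (KO) and 38.8 CPM (WT), the Ccl6 cluster 36.9 CPM in either library, and the Ifi202b cluster 30.7 CPM (KO) and 45.0 CPM (WT). The counts behind Ltbr were small, 437 UMIs (KO) and 632 UMIs (WT) over all epithelial cells, and all neighbours in the order overlapped. Its libraries were furthest apart in 2 classes with few UMIs, the low-RNA Ccl21a cluster with 48.6 CPM (KO) and 24.1 CPM (WT) and ciliated-like cells with 8.83 CPM (KO) and 32.1 CPM (WT). The rank order of classes correlated at 0.63 between the libraries. Over the 26 points formed by 13 classes and 2 libraries, log levels of Cd40 and Ltbr had a Pearson correlation of -0.76, given as a description because classes of a library share its depth and its preparation.

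**Figure D1:**
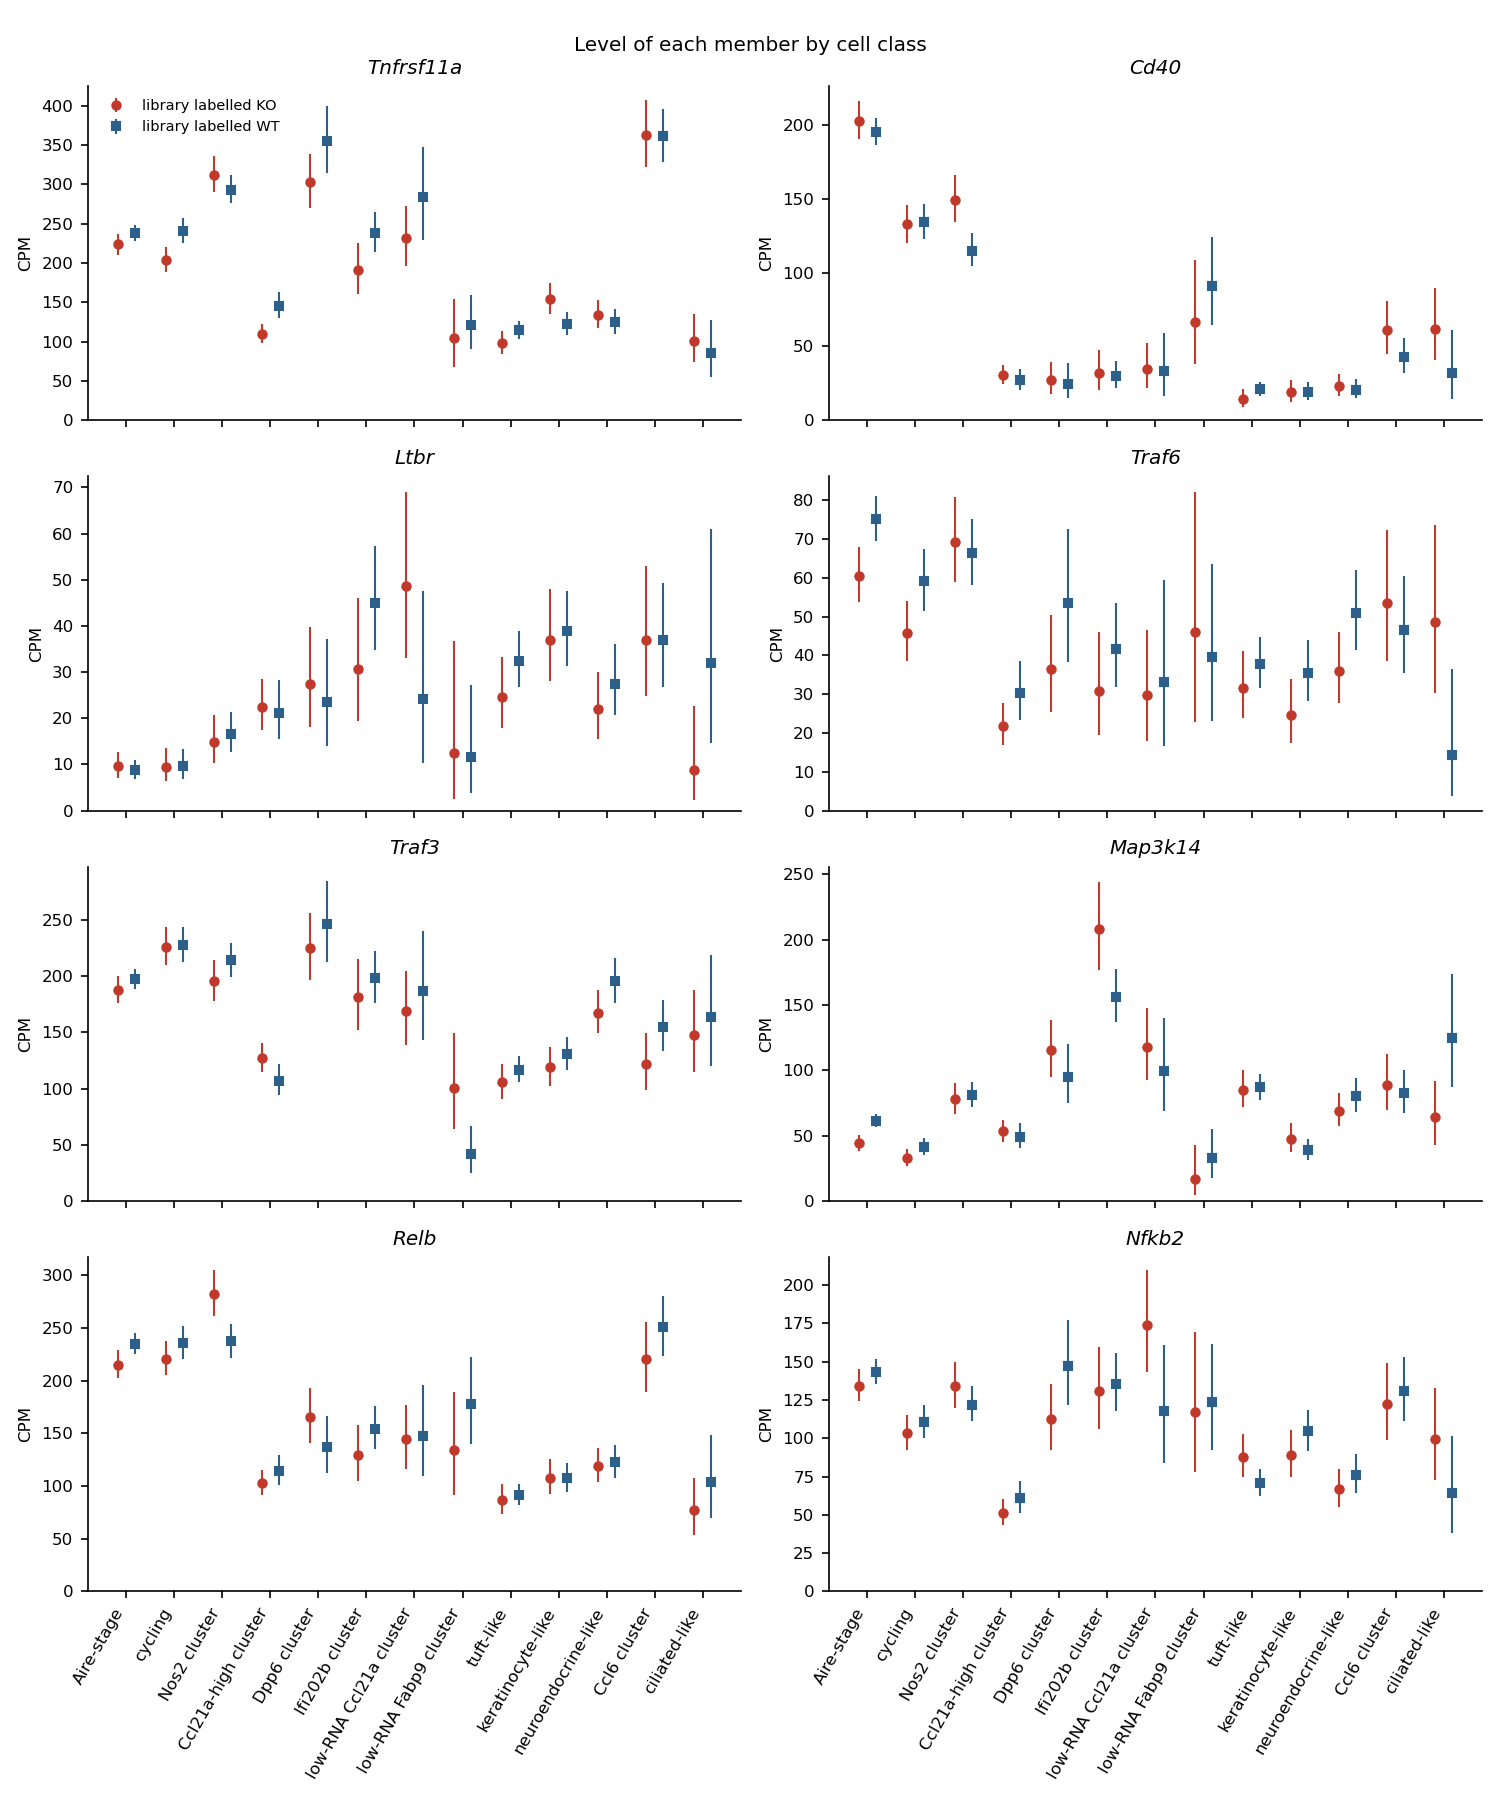
Level of each of the 8 members (y axis, CPM of summed UMIs, one scale per gene starting at 0) in 13 epithelial classes (x axis), with the library labelled KO as red circles and the library labelled WT as blue squares; bars are exact 95% Poisson intervals and cover counting error only. Cd40 peaks in Aire-stage cells at 203 and 195 CPM, where Ltbr is at its lowest by the mean of the libraries (9.62 and 8.73 CPM), and Tnfrsf11a is highest in the Ccl6 cluster at 363 and 361 CPM.

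Of the adaptors, Traf6 was highest in Aire-stage cells and the Nos2 cluster, while Traf3 was as high in some classes with little Aire as in the Aire-expressing ones. Traf6 (ENSMUSG00000027164, chr2:101678429-101701669, plus strand), a ubiquitin ligase needed for a normal medulla, had 60.6 CPM (KO) and 75.1 CPM (WT) in Aire-stage cells and 69.3 CPM (KO) and 66.3 CPM (WT) in the Nos2 cluster. Cycling cells had 45.8 CPM (KO) and 59.1 CPM (WT), and the Ccl6 cluster 53.5 CPM (KO) and 46.7 CPM (WT). The Ccl21a-high cluster was the lowest by the mean of the libraries, with 21.8 CPM (KO) and 30.3 CPM (WT), and its neighbour, the keratinocyte-like cells, had 24.7 CPM (KO) and 35.4 CPM (WT). The span between classes was 2.61-fold. Traf3 (ENSMUSG00000021277, chr12:111166370-111267153, plus strand), the inhibitor whose loss releases NIK, was highest in the Dpp6 cluster, with 225 CPM (KO) and 247 CPM (WT), and in cycling cells, with 226 CPM (KO) and 228 CPM (WT). Aire-stage cells had 188 CPM (KO) and 197 CPM (WT), in the middle of a run of classes whose neighbours all overlapped. Tuft-like cells, with 106 CPM (KO) and 117 CPM (WT), and the Ccl21a-high cluster, with 127 CPM (KO) and 107 CPM (WT), were low. The low-RNA Fabp9 cluster was the lowest, with 100.3 CPM from 24 UMIs (KO) and 42.0 CPM from 18 UMIs (WT).

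Map3k14 (ENSMUSG00000020941, chr11:103219762-103267472, minus strand), which encodes NIK, was, like Ltbr, lower in Aire-stage cells than in most other classes. It was highest in the Ifi202b cluster, with 208 CPM in the library labelled KO and 156 CPM in the library labelled WT. The low-RNA Ccl21a cluster had 118 CPM (KO) and 99.6 CPM (WT), and the Dpp6 cluster 115 CPM (KO) and 95.3 CPM (WT). The 3 highest classes by the mean of the libraries were thus clusters that express Ccl21a and little Aire. Ciliated-like cells had 64.0 CPM (KO) and 125 CPM (WT), tuft-like cells 85.1 CPM (KO) and 87.0 CPM (WT), the Ccl6 cluster 89.1 CPM (KO) and 82.7 CPM (WT), the Nos2 cluster 77.8 CPM (KO) and 81.1 CPM (WT), and neuroendocrine-like cells 69.1 CPM (KO) and 80.4 CPM (WT). Aire-stage cells, with 44.2 CPM (KO) and 61.5 CPM (WT), lay apart from neuroendocrine-like cells in both libraries. Cycling cells, with 32.9 CPM (KO) and 41.3 CPM (WT), were lower still, and the low-RNA Fabp9 cluster was the lowest with 16.7 CPM (KO) and 32.7 CPM (WT). The Ccl21a-high cluster differed from the other Ccl21a-expressing clusters, with 53.3 CPM (KO) and 49.2 CPM (WT). The annotated gene 1700028N14Rik overlaps Map3k14 on the same strand. It was counted separately, with 23 UMIs in the library labelled KO and 26 in the library labelled WT, and reads common to both genes could not be told apart here.

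The subunit genes were expressed in every class compared. Relb (ENSMUSG00000002983, chr7:19606217-19629438, minus strand), the partner of p52, had a high group of 4 classes. The Nos2 cluster had 282 CPM (KO) and 237 CPM (WT), the Ccl6 cluster 220.3 CPM (KO) and 251 CPM (WT), cycling cells 221 CPM (KO) and 236 CPM (WT), and Aire-stage cells 215 CPM (KO) and 235 CPM (WT). Aire-stage cells lay apart from the next class in both libraries. That class was the low-RNA Fabp9 cluster, with 134 CPM (KO) and 177 CPM (WT), followed by the Dpp6 cluster with 165 CPM (KO) and 137 CPM (WT). Tuft-like cells, with 86.8 CPM (KO) and 91.2 CPM (WT), and ciliated-like cells, with 77.2 CPM (KO) and 103 CPM (WT), were lowest. Nfkb2 (ENSMUSG00000025225, chr19:46304320-46312385, plus strand) varied least, 2.60-fold, and all neighbours in its order overlapped. By the mean of the libraries it was highest in the low-RNA Ccl21a cluster, with 174 CPM from 111 UMIs (KO) and 118 CPM from 39 UMIs (WT). Aire-stage cells had 134 CPM (KO) and 143 CPM (WT), the Ifi202b cluster 131 CPM (KO) and 136 CPM (WT), and the Dpp6 cluster 112 CPM (KO) and 147 CPM (WT). The Ccl21a-high cluster was lowest, with 51.3 CPM (KO) and 61.0 CPM (WT). Relb and Nfkb2 had a correlation of 0.60 over the 26 points, while Relb reached 0.77 with Tnfrsf11a and 0.76 with Cd40.

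Within each library, Cd40, Traf6 and Relb were higher and Ltbr was lower in Aire-stage cells than in Ccl21a-expressing clusters, whichever of these clusters was taken. For Tnfrsf11a and Traf3 the side depended on the cluster in both libraries, and for Map3k14 in the library labelled WT alone. For Nfkb2 the size of the ratio depended on the cluster. Aire-stage cells were set against the pooled Ccl21a-high, Dpp6 and Ifi202b clusters, once in each library, and the direction was the same in both for 8 of 8 members. The classes came from clustering both libraries together, and the share of all genes with the same direction in both was not computed. The count of members therefore supports no conclusion about them. Cd40 differed most: in the library labelled KO it had 203 CPM in Aire-stage cells and 30.1 CPM in the pooled clusters, a log2 ratio of 2.75 [2.50, 3.02], and in the library labelled WT it had 195 CPM and 27.7 CPM, which is 2.82 [2.55, 3.10]. Traf6 was also higher in Aire-stage cells, by 1.21 [0.90, 1.52] (KO) and 0.98 [0.74, 1.23] (WT) on the log2 scale. The subunit genes were higher too, Relb by 0.84 in either library and Nfkb2 by 0.81 [0.62, 0.997] (KO) and 0.51 [0.36, 0.67] (WT). Smaller ratios were found for Tnfrsf11a, 0.46 [0.32, 0.59] (KO) and 0.16 [0.05, 0.27] (WT), and for Traf3, 0.26 [0.12, 0.41] (KO) and 0.29 [0.17, 0.42] (WT). Ltbr and Map3k14 were lower in Aire-stage cells. For Ltbr the log2 ratio was -1.37 [-1.89, -0.87] (KO) and -1.75 [-2.18, -1.34] (WT), and for Map3k14 -1.04 [-1.28, -0.80] (KO) and -0.59 [-0.78, -0.40] (WT). Against the single clusters, Tnfrsf11a was higher in Aire-stage cells than in the Ccl21a-high cluster, at 1.03 (KO) and 0.70 (WT), and lower than in the Dpp6 cluster, at -0.44 (KO) and -0.58 (WT). Traf3 likewise had 0.56 (KO) and 0.88 (WT) against the Ccl21a-high cluster and -0.26 (KO) and -0.32 (WT) against the Dpp6 cluster. Map3k14 was at -2.24 (KO) and -1.35 (WT) against the Ifi202b cluster, but at -0.27 (KO) and 0.32 (WT) against the Ccl21a-high cluster. Nfkb2 was higher than in the Ccl21a-high cluster, at 1.39 (KO) and 1.23 (WT), and within counting error of the Dpp6 and Ifi202b clusters. These 4 pooled ratios therefore rest on the mixture of the pool. The pool was mixed differently in the libraries, with 473, 292 and 268 cells of the 3 clusters in the library labelled KO and 319, 201 and 437 in the library labelled WT, and differences between the libraries in these ratios were not tested. With every cell thinned to 2000 UMIs the Tnfrsf11a ratio in the library labelled WT was 0.032, and with equal weight per cell it was 0.26 in the library labelled KO.

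**Figure D2:**
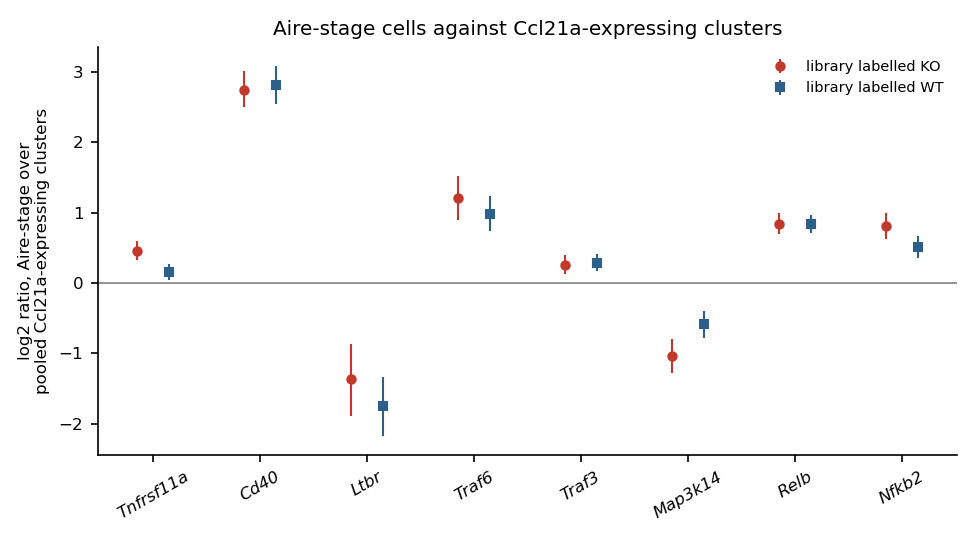
The log2 ratio of the level in Aire-stage cells over the level in the pooled Ccl21a-high, Dpp6 and Ifi202b clusters (y axis) for each member (x axis), in the library labelled KO (red circles) and the library labelled WT (blue squares), with 95% counting intervals. Cd40, Traf6, Relb and Nfkb2 lie above 0 and Ltbr and Map3k14 below 0 in both libraries.

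The comparison the series was made for is the library labelled KO against the library labelled WT. Over all epithelial cells, all 8 members were lower in the library labelled KO, each by a small amount. A lower value of any size was found for 51.6% of the 19015 genes with at least 50 UMIs, and the median log2 ratio was -0.10 for the 8 members and -0.01 for all those genes. Of the members, 5 had a counting interval wholly below 0, as did 22.9% of all genes. No member passed 1.5-fold, which 7.17% of genes did in the lower direction and 5.49% in the higher. Lower by over 20% was 1 member, Traf6, against 16% of all genes.

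Traf6 had the largest difference, with 982 UMIs and 43.8 CPM (95% interval 41.1 to 46.6) for the library labelled KO, against 1699 UMIs and 55.2 CPM (52.6 to 57.9) for the library labelled WT, or -0.34 [-0.45, -0.22]. Tnfrsf11a had 196 CPM (KO) and 213 CPM (WT), -0.12 [-0.18, -0.07]. Relb had 171 CPM (KO) and 184 CPM (WT), -0.11 [-0.17, -0.05], and Nfkb2 105 CPM (KO) and 113 CPM (WT), -0.11 [-0.19, -0.04]. Traf3, with 169 CPM (KO) and 179 CPM (WT), had a ratio of -0.08 [-0.14, -0.02]. Each of these 4 genes was lower by less than 20%. The intervals of Cd40 (94.6 CPM in KO and 98.6 CPM in WT, -0.06 [-0.14, 0.02]) and Ltbr (19.5 CPM in KO and 20.5 CPM in WT, -0.08 [-0.26, 0.10]) included 0. Map3k14, with 65.3 CPM (KO) and 69.7 CPM (WT), -0.09, also had an interval that reached 0.

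The mixture of classes behind these totals was not the same in the libraries. Aire-stage cells made up 13.3% (KO) and 17.5% (WT) of epithelial cells, and the Ccl21a-high cluster 14.5% (KO) and 8.21% (WT). When the classes of both libraries were weighted as in the library labelled WT, a calculation chosen after seeing the data, 7 members stayed lower in the library labelled KO and Cd40 turned to 0.093. Traf6 was then at -0.25, Tnfrsf11a and Traf3 at -0.08, Relb at -0.05 and Nfkb2 at -0.04. The sign of 2 small ratios also turned with other settings: Traf3 was at 0.035 with every cell thinned to 2000 UMIs, and Map3k14 at 0.090 with equal weight per cell.

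Within Aire-stage cells, 6 of 8 members were lower in the library labelled KO, against 52.2% of 15379 genes, and the median log2 ratio was -0.09 for the members and -0.02 for all genes. The intervals of 3 members, Traf6, Map3k14 and Relb, lay below 0, as those of 17% of genes did. Map3k14 had the largest difference among them, with 216 UMIs and 44.2 CPM in the library labelled KO, against 542 UMIs and 61.5 CPM in the library labelled WT, which is a ratio of -0.48 [-0.71, -0.25]. It was the 1 member lower by over 20%, which 18.8% of genes were, and no member passed 1.5-fold, against 8.27% of genes in the lower direction and 8.31% in the higher. Its ratio lay between -0.46 and -0.81 over the 7 other settings tried. Traf6 was at -0.31 [-0.51, -0.11] and Relb at -0.13 [-0.24, -0.02]. Cd40, at 0.05 [-0.06, 0.17], and Ltbr, at 0.14 [-0.42, 0.68] from 47 UMIs (KO) and 77 UMIs (WT), were the 2 higher members. Aire itself was 965 CPM (KO) and 888 CPM (WT) in these cells. Summed markers of other cell types and of cycling moved with this comparison. The 9 cTEC markers, all detected in both libraries, had 1007 CPM (KO) and 1814 CPM (WT). The 8 dendritic cell or macrophage markers, also all detected, had 801 CPM (KO) and 468 CPM (WT). The 9 cycling markers, all detected too, had 519 CPM (KO) and 326 CPM (WT). A sum can rest on a few of its markers. Whether these sums come from cells of those types or from Aire-stage cells themselves was not tested. Their part in the members' ratios was not tested either. Median depth was 10231 UMIs a cell (KO) and 11543 UMIs a cell (WT).

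**Figure D3:**
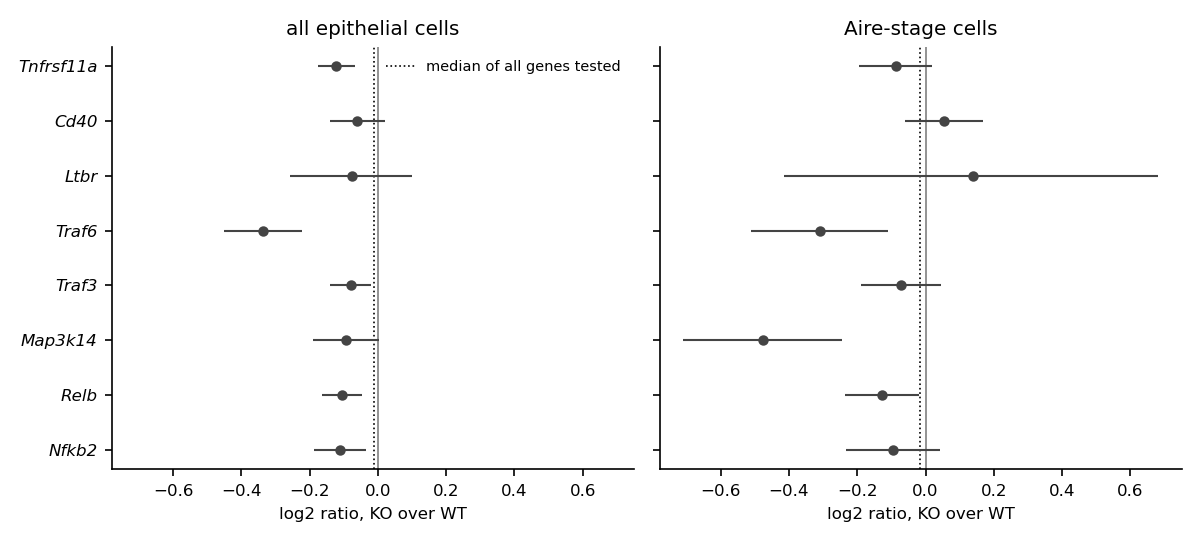
The log2 ratio of KO over WT (x axis) for each member (y axis) in all epithelial cells (left) and Aire-stage cells (right), with 95% counting intervals; the dotted line is the median of all genes tested. Traf6 at -0.34 is the lowest member over all epithelial cells and Map3k14 at -0.48 in Aire-stage cells.

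At equal depth a Map3k14 UMI was found in a smaller share of Aire-stage cells in KO than in WT, and a difference was not resolved for Traf6. With every cell thinned to 2000 UMIs, 7.64% of Aire-stage cells had a Map3k14 UMI in the library labelled KO (33 of 432 cells, exact 95% interval 5.32 to 10.6%), against 11.98% in the library labelled WT (81 of 676 cells, 9.63 to 14.7%), or a log2 ratio of -0.65 [-1.21, -0.09]. Without thinning the shares were 32.95% (KO) and 46.7% (WT). For Traf6 in the same cells the shares were 12.04% (KO) and 12.6% (WT), with an interval of -0.53 to 0.40 for the log2 ratio, so that a difference in detection was not resolved at this depth. Tnfrsf11a was found in 34.7% (KO) and 35.1% (WT) of Aire-stage cells, Cd40 in 31.9% (KO) and 31.8% (WT), and Relb in 35.2% (KO) and 36.8% (WT). For each of the 3 genes the intervals of the libraries overlapped. Over all epithelial cells the thinned shares were 28.3% (KO) and 30.8% (WT) for Tnfrsf11a, 7.59% (KO) and 8.74% (WT) for Traf6, and 4.06% (KO) and 5.18% (WT) for Ltbr. With cells thinned to 1000 UMIs the Ltbr share was 2.11% in both libraries. Free RNA sets a floor for such shares. In fibroblast-like cells (median 3947 UMIs in KO and 4351 UMIs in WT), which should lack RANK, Tnfrsf11a and Cd40 had no UMI in 22 thinned cells (KO) and 12 thinned cells (WT), which allows shares of up to 13.6% and 25%. The shares of both receptors in Aire-stage cells were above these limits. Map3k14 was found in 1 of 22 (KO) and 1 of 12 (WT) fibroblast-like cells, 4.55% and 8.33%, with intervals reaching 22.8% (KO) and 38.5% (WT), and Traf6 in 0 of 22 (KO) and 2 of 12 (WT). Whether fibroblast-like cells make Cd40, Map3k14 or Traf6 themselves was not tested, so for these genes they are a comparison and not a sure floor. These few cells do not set the Map3k14 and Traf6 shares of Aire-stage cells apart from background. Other non-epithelial classes did hold the receptors. In endothelial-like cells Tnfrsf11a had 175 CPM from 292 UMIs (KO) and 174 CPM from 161 UMIs (WT). This was above the mimetic classes named from markers and the Ccl21a-high cluster. Cd40 there had 100.2 CPM from 167 UMIs (KO) and 148 CPM from 137 UMIs (WT), below the Nos2 cluster in the library labelled KO and above it in the library labelled WT. In thymocyte-like cells Tnfrsf11a had 116 CPM from 18 UMIs (KO) and 117 CPM from 28 UMIs (WT), and Cd40 129 CPM from 20 UMIs (KO) and 41.7 CPM from 10 UMIs (WT). The Tnfrsf11a levels of thymocyte-like cells are close to those of the tuft-like and ciliated-like cells. The Cd40 levels of thymocyte-like cells are above those of most mimetic and Ccl21a-expressing classes. The thymocyte-like cells also held Epcam (316.5 CPM in KO and 316.6 CPM in WT) and Aire (484 CPM in KO and 279 CPM in WT), as did the endothelial-like cells (Epcam at 378 CPM in KO and 327 CPM in WT, Aire at 411 CPM in KO and 503 CPM in WT). The part of free RNA or of doublets in the lower levels was not tested.

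Taken class by class, the members did not move as a block. Of 104 ratios (8 members in 13 classes), 65 were below 0 and 39 above it, with the share of all genes below 0 between 47.9% and 54.2% in the single classes. Counting intervals lay below 0 for 12 and above 0 for 9. Of the 104 ratios 92 rested on at least 50 UMIs over both libraries, the minimum for the background. The counts of members include the remaining ratios, which the shares of all genes leave out. Among these remaining ratios, intervals lay below 0 for Ltbr in ciliated-like cells. They lay above 0 for Traf6 in ciliated-like cells and for Traf3 in the low-RNA Fabp9 cluster. In single classes intervals wholly on one side of 0 were found for 6.14% to 17% of all genes in the lower direction and 5.99% to 14.8% in the higher. In cycling cells all 8 members were lower in the library labelled KO (51% of genes were), with Tnfrsf11a at -0.24 [-0.39, -0.09] and Traf6 at -0.37 [-0.68, -0.06]. In the Nos2 cluster 3 of 8 members were lower (52.8% of genes were), and the intervals of Cd40, 0.38 [0.17, 0.59], and Relb, 0.25 [0.10, 0.40], lay above 0, as for 11.8% of genes. The Nos2 cluster and the Aire-stage cells, both of which express Aire, thus had Relb on opposite sides of 0, a difference between classes that was not tested.

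The receptors and the kinase also differed between classes in sign. Tnfrsf11a was lower in the Ccl21a-high cluster, by -0.41 [-0.64, -0.19], and in the Ifi202b cluster, by -0.32 [-0.61, -0.04], and higher in keratinocyte-like cells, at 0.33 [0.08, 0.58]. The cTEC markers also differed between the libraries in the Ccl21a-high cluster, in the other direction from Tnfrsf11a, at 3713 CPM (KO) and 2226 CPM (WT). Without the cTEC-like cells of resolution 2, a step chosen after seeing the data, they were at 2578 CPM (KO) and 2168 CPM (WT), and the Tnfrsf11a ratio was -0.51 [-0.75, -0.28]. Traf6 in that cluster was then at -0.60 [-1.15, -0.06], with an interval that no longer included 0. Map3k14 was higher in the Ifi202b cluster, at 0.42 [0.11, 0.72], where it was also most abundant, and lower in ciliated-like cells, at -0.96 [-1.73, -0.21] from 29 UMIs (KO) and 35 UMIs (WT). Traf6 was lower in 9 of 13 classes, among them neuroendocrine-like cells at -0.50 [-0.98, -0.03], and higher in ciliated-like cells from 22 UMIs (KO) and 4 UMIs (WT). Traf3 was lower in 11 of 13 classes and Relb in 10 of 13, but each had a single class with an interval below 0, and Traf3 had 2 with one above 0. Cd40 was lower in 4 of 13 classes. Nfkb2 was higher in tuft-like cells, at 0.32 [0.02, 0.61], and lower in 9 of 13 classes. None of the 13 epithelial classes had more than 3 members with an interval on the same side of 0. Outside them, endothelial-like cells had intervals below 0 for Cd40 (-0.56), Traf6 (-0.64), Traf3 (-0.43), Map3k14 (-0.61) and Nfkb2 (-0.47). Those of Tnfrsf11a (0.01), Ltbr (0.49) and Relb (0.14) included 0. The share of all genes was not computed for that class, and what its ratios mean for the epithelial ones was not tested.

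**Figure D4:**
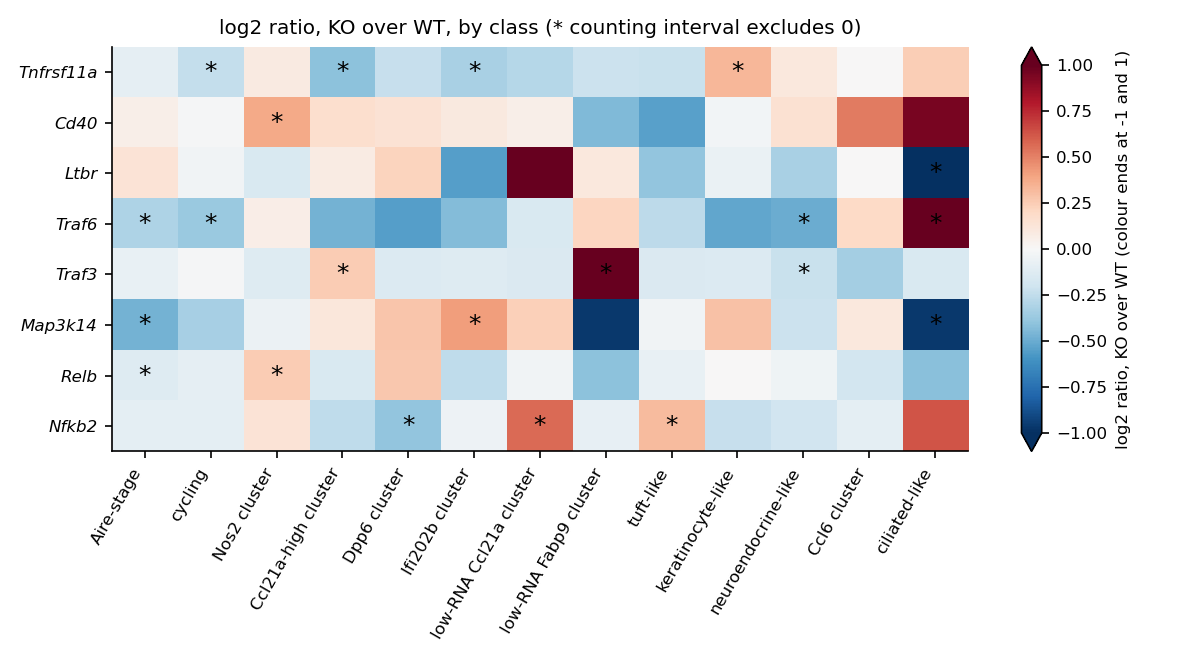
Heat map of the log2 ratio of KO over WT for each member (rows) in each of 13 epithelial classes (columns), blue for lower and red for higher, with colours ending at -1 and 1; stars mark ratios whose 95% counting interval excludes 0. Stars are scattered over both directions, 12 in blue cells and 9 in red cells.

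The other genes of the pathway were counted by their role. These counts are read against the 51.6% of all genes that were lower in the library labelled KO over epithelial cells and the 52.2% that were lower in Aire-stage cells, and no list was tested. The other NF-kB subunits were lower in the library labelled KO in 3 of 3 cases, both over all epithelial cells (median log2 ratio -0.22) and in Aire-stage cells (median -0.29). Nfkb1, the canonical partner of RelA, had 238 CPM (KO) and 277 CPM (WT) over epithelial cells, -0.22 [-0.27, -0.17]. Rel, named after its value was seen, had 104 CPM (KO) and 139 CPM (WT), -0.42 [-0.49, -0.35], and Rela, likewise, 33.9 CPM (KO) and 36.9 CPM (WT), -0.12. The canonical subunit genes Rel and Nfkb1 were thus further below 0 than Relb and Nfkb2, a difference that was not tested. The list called I-kB inhibitors held Nfkbia, Nfkbib, Nfkbie, Nfkbid, Nfkbiz and Bcl3, whose products do not all act in the same way. Its genes were lower in 5 of 6 cases over epithelial cells (median -0.13) and in 5 of 6 in Aire-stage cells (median -0.27). Nfkbia, the most abundant of them in counts, had 811 CPM (KO) and 944 CPM (WT), -0.22 [-0.25, -0.19].

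Of 12 adaptors and regulators, 10 were lower over epithelial cells (51.6% of all genes were) and 9 in Aire-stage cells (52.2% of all genes were), with medians of -0.12 and -0.08 and none past 1.5-fold. Tnip1, an inhibitor of NF-kB signalling and the list's most counted gene, had 219 CPM (KO) and 256 CPM (WT), -0.23 [-0.28, -0.18]. The IKK kinases were lower in 2 of 3 cases over epithelial cells (median -0.003) and in 3 of 3 in Aire-stage cells (median -0.13). In Aire-stage cells all 3 intervals included 0. Over epithelial cells Ikbkb, the most counted, had 65.9 CPM (KO) and 75.0 CPM (WT), -0.19 [-0.28, -0.09]. Named after their values were seen, Chuk, the gene of IKK alpha, was at -0.003 [-0.13, 0.12] and Ikbkg at 0.08 [-0.14, 0.29]. The other receptors were lower in 4 of 6 cases over epithelial cells and 5 of 6 in Aire-stage cells. Among them Tnfrsf13c, the BAFF receptor gene, passed 1.5-fold from few counts, 37 UMIs (KO) and 98 UMIs (WT), -0.95 [-1.54, -0.39]. Il1r1, the most counted, had 43.5 CPM (KO) and 48.1 CPM (WT), -0.14 [-0.26, -0.03].

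Ligands and the decoy receptor were measured in epithelial cells as well. Tnfrsf11b, which encodes osteoprotegerin, the soluble decoy that captures RANK ligand, had 82.0 CPM (KO) and 91.7 CPM (WT), -0.16 [-0.25, -0.08]. It was highest in the Ccl6 cluster, with 523 CPM (KO) and 381 CPM (WT), the class in which Tnfrsf11a was also highest. Tnfsf11, the gene of RANK ligand, was near the limit of detection, with 39 UMIs (KO) and 26 UMIs (WT) in all epithelial cells, 1.04 [0.29, 1.81], and 25 UMIs (KO) and 13 UMIs (WT) of these were in Aire-stage cells. Lta, a lymphotoxin gene, was lower in Aire-stage cells, with 6.55 CPM (KO) and 15.5 CPM (WT), -1.25 [-1.85, -0.68]. Ltb, the other lymphotoxin gene, named after its values were seen, was higher in these cells from more counts, with 66.3 CPM (KO) and 48.8 CPM (WT), 0.44 [0.23, 0.66], and 0.36 [0.24, 0.47] over all epithelial cells. Of 6 genes of this list 4 had at least 50 UMIs over epithelial cells, 2 lower and 2 higher, and 3 in Aire-stage cells, 2 lower and 1 higher.

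Of the known outputs of mTEC maturation, 6 of 10 were lower over epithelial cells (median -0.07) and 5 of 10 in Aire-stage cells (median 0.01), near the shares of all genes (51.6% and 52.2%). These counts hide differences in both directions. In Aire-stage cells each of the 10 had an interval that excluded 0. Such intervals lay below 0 for 17% of all genes and above 0 for 14.8%. Named after their values were seen, Ccl20 (-0.46), Fezf2 (-0.38), Cd80 (-0.23), Spib (-0.22) and Icam1 (-0.10) were lower. Cxcl13 (0.50), Ccl19 (0.30), Vcam1 (0.15), Aire (0.12) and Ccl21a were higher. Ccl21a passed 1.5-fold in the higher direction in both comparisons, with 2961 CPM (KO) and 1684 CPM (WT) over epithelial cells, 0.81 [0.80, 0.83], and 659.7 CPM (KO) and 382 CPM (WT) in Aire-stage cells, 0.79 [0.72, 0.86]. It was also higher in the library labelled KO in cells of other types, with 1776 CPM (KO) and 417 CPM (WT) in thymocyte-like cells, 1327 CPM (KO) and 19.5 CPM (WT) in fibroblast-like cells and 533 CPM (KO) and 330.5 CPM (WT) in endothelial-like cells. The part of free RNA in the Aire-stage value was not tested. No member of the pathway moved by that amount in either comparison.

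**Figure D5:**
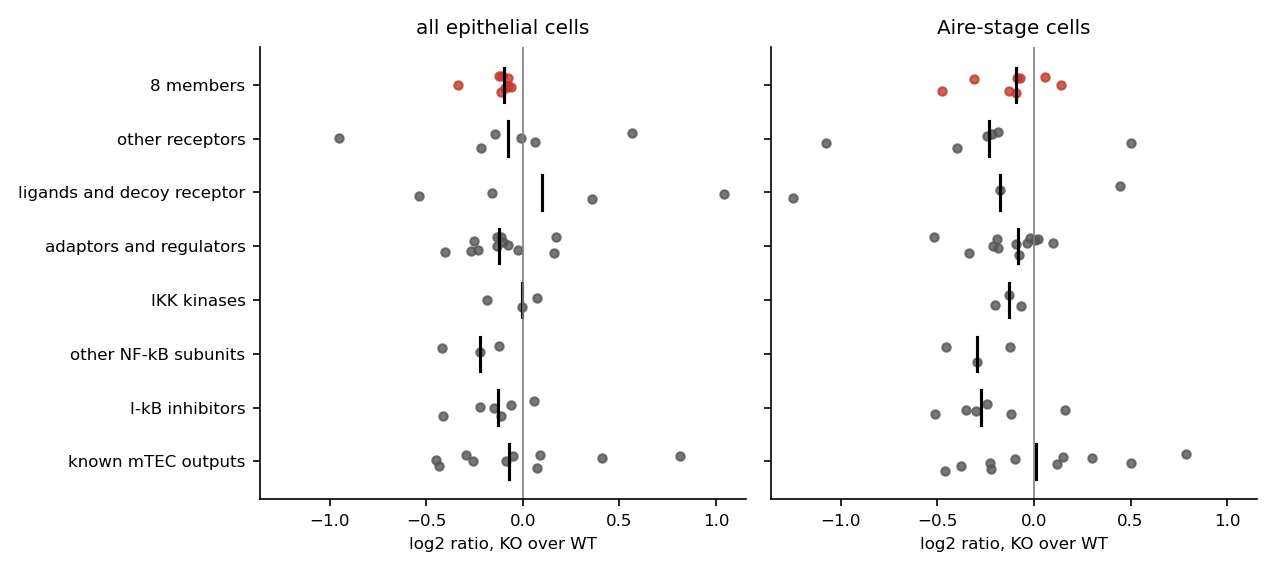
The log2 ratio of KO over WT (x axis) for the 8 members (red points) and the genes of 7 further lists with at least 50 UMIs (grey points), one row a list, in all epithelial cells (left) and Aire-stage cells (right); black bars are medians, and points are spread vertically at random. The medians of the other NF-kB subunits lie at -0.22 and -0.29, below those of the members at -0.10 and -0.09.

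Genes whose pattern over the 13 classes and 2 libraries was most like each member's were picked by the Pearson correlation of log2(CPM + 10) among 7804 genes. These points share libraries, depth and clusters, so the values are descriptions. Cd40 was closest to Apobec3 (0.93), Icosl (0.91), a ligand of the co-stimulatory receptor ICOS, and Fas (0.90), a death receptor. Relb was closest to Gnb4 (0.90), Il23a (0.90), which encodes a cytokine subunit, and Poglut1 (0.87). For Tnfrsf11a the closest were AU020206 (0.84), Swap70 (0.82) and Birc3 (0.81), the last a ubiquitin ligase of the TRAF complexes. Nfkb2 had the weakest best match, Traf2 (0.73), an adaptor of the same complexes, followed by AU020206 (0.72) and Tnip1 (0.69). Traf3 was closest to Wdr59 (0.88), Traf6 to Kdm2b (0.88), Map3k14 to Thada (0.86) and Ltbr to Actn4 (0.84). With Aire the members' correlations were 0.85 for Cd40, 0.72 for Traf6, 0.59 for Relb, 0.28 for Nfkb2, 0.10 for Tnfrsf11a, 0.04 for Traf3, -0.58 for Map3k14 and -0.75 for Ltbr.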

How the data were processed

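The values deposited by the authors are whole-number UMI counts without normalization, for 32285 genes. Cell Ranger 7.0.1 is named per the file headers. Seurat and the build mm10 stand in the submitters' processing notes. The sources used here do not say whether intronic reads were counted or which transcript end was read. The 8 members and all gene lists were chosen with earlier results of these data known. The cell filter required at least 500 genes and 1000 UMIs, with mitochondrial UMIs at 10% or less, and kept part of the barcodes (3584 in KO and 4037 in WT); 5 barcodes occurred in both libraries, 3 of them among kept cells. Scrublet called 0 doublets, so it is taken not to have worked and none were removed. Both libraries were clustered together with scanpy 1.11.5: 3000 variable genes without the members and Foxp1, 30 components, 15 neighbours, Leiden resolution 1. A marker list was met where 3 or more markers, and 33% or more of the list, were at least 2-fold above other cells and found in at least 10% of cells. These thresholds were set after clusters were seen. Some clusters called by a leading gene met a list as well. The Nos2 cluster met 3 of 9 Aire-stage markers (Cd80, Cd86 and Cd52). The Ccl21a-expressing clusters met 4 or 5 of 8 markers of Ccl21a-expressing mTECs. UMIs were summed per class and library and scaled to CPM, with exact Poisson, conditional binomial and Clopper-Pearson intervals (scipy 1.17.1) at 95% for counting error only, which do not cover variation between animals or preparations. The background is every gene with at least 50 UMIs over both libraries. A floor of 3 UMIs or cells stands for a count of 0. Shares of cells were taken after thinning to 2000 UMIs, leaving out 489 shallower epithelial cells in KO and 428 in WT. Gene positions come from GENCODE M21 on mm10, and promoter sequences from RefSeq on GRCm38.p6. The named genes were all 8 members; in each list the gene with the most UMIs and those past 1.5-fold with at least 50 UMIs; and the genes of most like pattern, with a mean of at least 20 CPM. The pseudocount for likeness was 10 CPM. Traf3 and Nfkb2 overlap genes on the opposite strand, and the strand used in counting is not stated. The interval calculation was tested on simulated counts. Alternatives covered the cell filter, doublet scores, cell weighting, scaling, thinning and clustering resolution, and, chosen after seeing the data, the class mix and the removal of cTEC-like cells.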

Additional observations from a re-analysis of the deposited data

Results flagged for a closer look

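In 6 pairs of classes a member's KO over WT ratio lay on opposite sides of 0, over 20% lower in one class and over 25% higher in the other, each with a counting interval that excluded 0. The pairs were picked from many possible ones, and none of the differences between classes was tested. For Map3k14 the log2 ratio in the Ifi202b cluster was 0.89 above that in Aire-stage cells and 1.38 above that in ciliated-like cells. For Tnfrsf11a keratinocyte-like cells were 0.74 above the Ccl21a-high cluster. For Traf6 ciliated-like cells, with 22 UMIs (KO) and 4 UMIs (WT), were 2.14 above cycling cells and 2.27 above neuroendocrine-like cells. For Nfkb2 the low-RNA Ccl21a cluster was 0.96 above the Dpp6 cluster; its ratio in the low-RNA Ccl21a cluster was -0.10 under the stricter cell filter and that in the Dpp6 cluster 0.040 with thinned cells, so this pair rests on those choices.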

How the results depend on the processing

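No paired analysis was possible because each group is 1 library. Over all epithelial cells 50 of 56 recomputed member ratios stayed within their counting intervals. Thinning every cell to 2000 UMIs reversed Traf3 to 0.035 and moved Ltbr to -0.36 and Traf6 to -0.19. The stricter cell filter moved Map3k14 to -0.20 and equal weight per cell moved it to 0.090; the class mix of WT, added after seeing the data, moved Cd40 to 0.093. Leaving out the cTEC-like cells of resolution 2, also added after seeing the data, kept all these ratios within their intervals. In Aire-stage cells 53 of 56 stayed, and thinning moved Traf3 to 0.090, Map3k14 to -0.81 and Nfkb2 to -0.23. In other classes 527 of 566 stayed and 2 were reversed, both for Nfkb2 (0.040 in the Dpp6 cluster with thinned cells and -0.10 in the low-RNA Ccl21a cluster with stricter cells). Of the ratios of Aire-stage cells over Ccl21a-expressing clusters, 69 of 80 stayed and all kept their direction. Thinning gave 0.032 for Tnfrsf11a (WT), -2.49 for Ltbr (WT), 0.13 for Traf3 (WT), -1.46 for Map3k14 (KO) and 0.62 for Nfkb2 (KO). Equal weight per cell gave 0.26 for Tnfrsf11a (KO), 0.10 (KO) and 0.15 (WT) for Traf3, and -1.56 (KO) and -0.83 (WT) for Map3k14, and the stricter filter gave 0.70 for Nfkb2 (WT). The share of epithelial cells with an Ltbr UMI had a log2 ratio of 3.8e-05 at 1000 UMIs a cell in place of -0.35. Genes past 1.5-fold numbered 2408 over epithelial cells and 2550 in Aire-stage cells, 8585 and 11187 with no minimum of UMIs, and 5681 and 5516 past the lower threshold of 20% lower or 25% higher. The causes of these shifts were not tested. With 437 UMIs (KO) and 632 UMIs (WT) over epithelial cells the Ltbr interval ran from -0.26 to 0.10, and without replicate libraries no interval covers variation between animals.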
